A study of Mus musculus with 6 samples.

Results

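The genes described here are 10 of the 43346 rows of a gene count table, chosen by name for their part in cellular iron storage, uptake and export and in ferroptosis. They are *Fth1* and *Ftl1* (ferritin subunits), *Ncoa4* (delivery of ferritin to the lysosome), *Tfrc*, *Steap3* and *Slc11a2* (uptake), *Slc40a1* and *Cp* (export), and *Gpx4* and *Acsl4* (defence against and sensitivity to ferroptosis). The table holds RNA-seq counts of primary mouse adult fibroblasts (MAFs), grown from ear tissue of C57BL6/J mice (adult females), in 3 control and 3 senescent libraries. Senescent MAFs received 20 Gy of X-rays and were cultured for 21 days, and control MAFs were sham irradiated. All cells were WT, were grown at 3% oxygen, were used between passages 3 and 8, and received 100 nM dexamethasone for 2 hours, with RNA taken 12 hours later. The comparison asks how the RNA of these genes differs once the cells are senescent, at this 1 time point.

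Iron that enters a cell on transferrin is released in endosomes, reduced, and moved to the cytosol, where ferritin stores what is not used. Ferritin is a shell of heavy subunits, which oxidize iron, and light subunits, which help it mineralize, and it gives its iron back when it is degraded in lysosomes. A pair of RNA-binding proteins, IRP1 and IRP2, sense iron and bind a short hairpin, the iron-responsive element (IRE): in a 5′ UTR it lets them hold back translation when iron is scarce, and in the 3′ UTR of *Tfrc* it lets them protect the mRNA from decay. Ferroptosis is a cell death in which iron drives the peroxidation of polyunsaturated phospholipids, and GPX4 is the enzyme that reduces those peroxides.

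Hairpins of this kind were searched for in the transcripts of the members, since they are the feature for which several of these mRNAs are known. The sequences are from mouse GENCODE M21 transcripts on GRCm38 (mm10), 27 bases each, 5′ to 3′ on the transcript's strand, with the 6-base loop in capitals. *Fth1* (chr19:9982733-9982759, plus strand), *Ftl1* (chr7:45459780-45459806, minus strand) and *Slc40a1* (chr1:45925466-45925492, minus strand) hold 1 each, in the 5′ UTR in exon 1.
Fth1: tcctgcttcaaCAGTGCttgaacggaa
Ftl1: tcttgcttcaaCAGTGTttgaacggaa
Slc40a1: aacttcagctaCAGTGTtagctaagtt
*Tfrc* holds 4 in the 3′ UTR in exon 19, on the plus strand, at chr16:32631220-32631246, chr16:32631599-32631625, chr16:32631664-32631690 and chr16:32631711-32631737.
Tfrc 1: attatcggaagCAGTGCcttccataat
Tfrc 2: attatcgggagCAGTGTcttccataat
Tfrc 3: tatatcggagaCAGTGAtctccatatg
Tfrc 4: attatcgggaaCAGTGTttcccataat
*Slc11a2* holds 1 in the 3′ UTR in exon 16, at chr15:100395154-100395180 on the minus strand, in which 4 of the 5 base pairs of the upper stem form.
Slc11a2: gccatcagagcCAGTGTgtttctatgg
The search took a C, a 5-base stem, a loop of CAGTG and any base but G, and a 5-base stem that pairs with the first, G-U pairs allowed. It found a hairpin with all 5 pairs in 1.02% of 21462 protein-coding genes, and with 4 or 5 pairs in 8.10%. No such hairpin was found in *Ncoa4*, *Steap3*, *Cp*, *Gpx4* or *Acsl4*. A match of letters and pairs is a description, and the gene counts do not separate *Slc11a2* transcripts with and without it.

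Libraries held between 50288454 and 82229553 counts on genes. Levels are CPM (each count relative to the TMM-scaled library total), given per kilobase of exon where genes are compared with each other, and a gene was called at an adjusted p under 0.05 in edgeR's quasi-likelihood test over 17589 tested genes. The labels were checked on marks of senescence: the cell-cycle inhibitors *Cdkn1a* (log2 fold change 2.33) and *Cdkn2a* (1.90) were higher in senescent MAFs, and the proliferation marker *Mki67* (-5.94) and the lamin gene *Lmnb1* (-3.55) were lower. Senescent replicate 3 stood apart, at root mean square log2 distances of 0.262 and 0.281 from the other senescent libraries, against 0.109 between those 2 and 0.108 to 0.142 among controls. Without it, the calls over all genes were 7052 higher and 6643 lower in place of 6360 and 6005, and values of single members that shifted most are given both ways. The labels do not say that replicates came from separate cultures or mice, so p-values measure the spread between these samples, which may be technical. In such bulk RNA a change in the number of expressing cells and a change in RNA per cell cannot be told apart.

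All 10 members passed the filter on low counts. In senescent MAFs 6 were higher (*Fth1*, *Ftl1*, *Ncoa4*, *Slc11a2*, *Cp* and *Acsl4*), 3 were lower (*Steap3*, *Slc40a1* and *Gpx4*), and *Tfrc* was not called. Among all tested genes 36.2% were called higher and 34.1% lower, so calls are common in this comparison. At the limit in the study's methods, an unadjusted p under 0.05 with a fold over 2, *Fth1* and *Cp* were higher and *Steap3* and *Slc40a1* lower, where 17.8% and 12.3% of all tested genes were. The study's results name a different p limit with the same fold, which was not applied here. The groups did not overlap for 9 of the 10, against 75.3% of all tested genes. The median log2 fold change was 0.60 for the members and 0.01 for all tested genes.

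**Figure D1:**
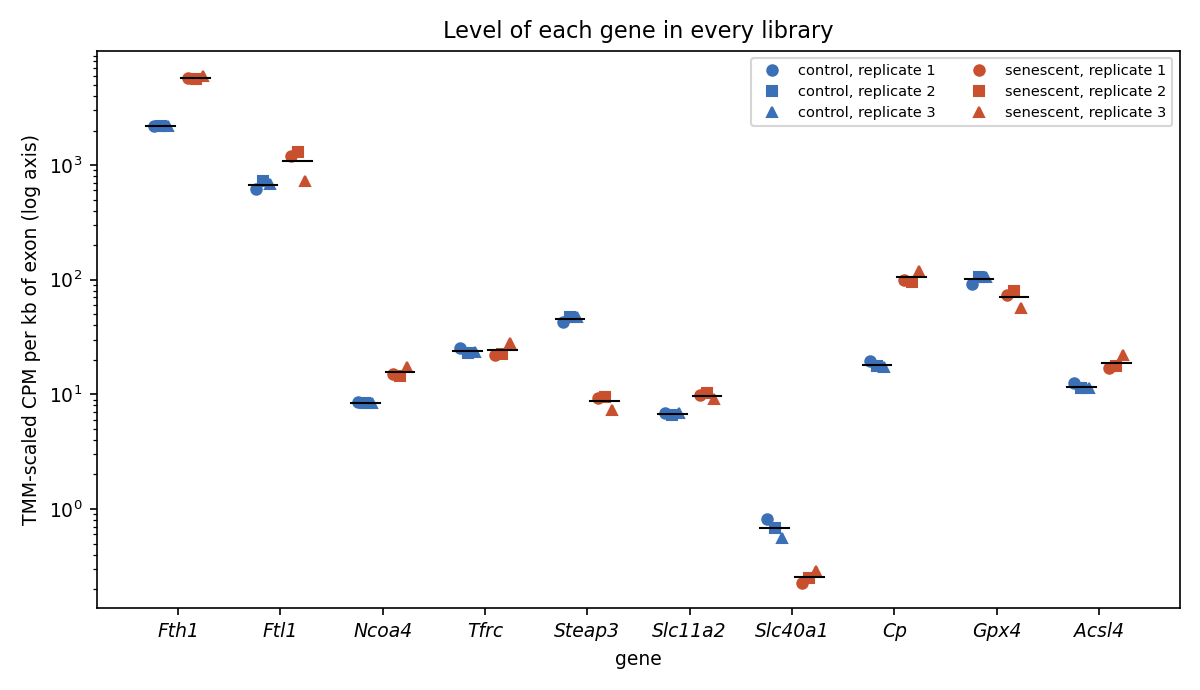
Level of each member in every library, as TMM-scaled CPM per kilobase of exon on a log axis, with control libraries in blue, senescent libraries in red, a marker shape per replicate number and a black line at each group's mean. *Fth1* lies highest in both groups and *Slc40a1* lowest, and the groups overlap for *Tfrc* alone.

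Ferritin RNA was the most abundant of the set, and both subunits were higher in senescent MAFs. *Fth1* (ENSMUSG00000024661, chr19:9982703-9985092), the heavy subunit, was at 1894, 1903 and 1897 CPM in control replicates 1 to 3 and at 5006, 4867 and 5168 CPM in senescent replicates 1 to 3. Every senescent library lay far above every control. The means were 1898 ± 4.43 and 5014 ± 150.4 CPM (SD, n = 3 each), a log2 fold change of 1.40 ± 0.05 (SE; adjusted p = 1.8e-07 in edgeR). Per kilobase, *Fth1* ranked 5 among all tested genes in control MAFs and 2 in senescent MAFs.

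*Ftl1* (ENSMUSG00000050708, chr7:45457944-45459884), the light subunit, was at 827, 963 and 918 CPM in control and 1607, 1753 and 973 CPM in senescent replicates 1 to 3. Senescent replicates 1 and 2 lay well above the controls, while replicate 3 was just above the highest control. The log2 fold change was 0.68 ± 0.20 (SE; 95% interval 0.22 to 1.14; adjusted p = 0.015 in edgeR), and 0.90 without senescent replicate 3. The call was lost without control replicate 1 (0.62, adjusted p = 0.0567 in edgeR) and with no filter on low counts (0.67, adjusted p = 0.0967 in edgeR). A row annotated as the miRNA *Gm22133* (chr7:45458089-45458197) lies inside the last exon of *Ftl1* on the same strand and held 9.06% to 14.8% as many counts. With that row added to *Ftl1*, the log2 fold change was 0.65 (adjusted p = 0.0221 in edgeR). Whether reads on that row had also been counted on *Ftl1* is not given in the sources used here. Pseudogene rows similar to *Fth1* and *Ftl1* held at most 0.269% and 0.407% of the counts of their parent gene.

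Together the 2 subunits took 0.266%, 0.277% and 0.274% of all counts in control and 0.681%, 0.678% and 0.630% in senescent replicates 1 to 3. The mean shares were 0.272 ± 0.00559% and 0.663 ± 0.0284% (SD, n = 3 each), and the groups did not overlap. The ratio of heavy to light RNA per kilobase was 3.54, 3.06 and 3.20 in control and 4.82, 4.30 and 8.21 in senescent replicates 1 to 3. Each senescent library lay above each control, and replicate 3 lay far above the others. The difference of the log2 ratios was 0.77 (exact permutation test, two-sided, p = 0.1, the smallest that 3 against 3 allows), and 0.48 without senescent replicate 3.

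**Figure D2:**
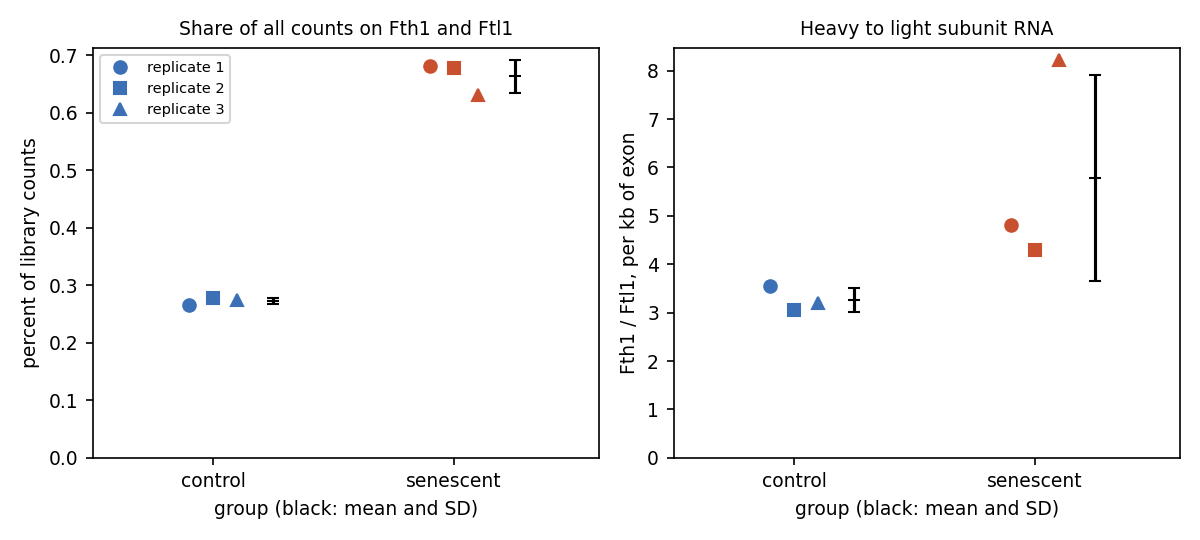
Left, percent of all counts of a library on *Fth1* and *Ftl1* together; right, ratio of *Fth1* to *Ftl1* CPM per kilobase of exon; points are libraries by group, and black bars are the mean and SD of 3. The share is 0.630% to 0.681% in senescent and 0.266% to 0.277% in control libraries, and the ratio of senescent replicate 3 (8.21) stands above the other senescent libraries.

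*Ncoa4* (ENSMUSG00000056234, chr14:32159865-32179855), the receptor that carries ferritin to the lysosome, was at 38.0, 37.2 and 37.6 CPM in control and 66.4, 64.6 and 76.8 CPM in senescent replicates 1 to 3. The control libraries lay close together and well below all senescent libraries. Its log2 fold change was 0.88 ± 0.08 (SE; adjusted p = 2.6e-05 in edgeR). A pseudogene row of like sequence, *Gm6768*, held 12.8% to 14.3% as many counts as *Ncoa4*, and adding it gave 0.89.

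The 3 uptake members went different ways. *Tfrc* (ENSMUSG00000022797, chr16:32608920-32632794), the transferrin receptor, was at 158, 142 and 145 CPM in control and 138, 140 and 174 CPM in senescent replicates 1 to 3. The groups overlapped, with senescent replicate 3 above and the other 2 below every control. The log2 fold change was 0.02 (95% interval -0.21 to 0.25; adjusted p = 0.871 in edgeR), and -0.09 without senescent replicate 3 (adjusted p = 0.086 in edgeR).

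*Steap3* (ENSMUSG00000026389, chr1:120190757-120272705), the endosomal reductase that turns ferric into ferrous iron, was at 247, 269 and 270.5 CPM in control and 53.0, 54.6 and 41.3 CPM in senescent replicates 1 to 3. Every senescent library was far below every control, and the mean was 5.28-fold lower. The log2 fold change was -2.40 ± 0.11 (SE; adjusted p = 7.8e-07 in edgeR), and 2.67% of all tested genes fell further. *Slc11a2* (ENSMUSG00000023030, chr15:100387898-100425072), the divalent metal transporter that moves ferrous iron out of the endosome, was at 43.4, 41.8 and 43.3 CPM in control and 62.2, 64.9 and 58.1 CPM in senescent replicates 1 to 3. All senescent libraries were higher, by a log2 fold change of 0.53 ± 0.06 (SE; adjusted p = 0.00014 in edgeR).

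The export members moved in opposite directions. *Slc40a1* (ENSMUSG00000025993, chr1:45908068-45926523), which encodes ferroportin, the exporter of ferrous iron, had the lowest level of the set: 7.34, 6.09 and 5.01 CPM in control and 2.06, 2.26 and 2.61 CPM in senescent replicates 1 to 3. These are 245 to 366 counts in control and 114 to 220 in senescent libraries, and the groups did not overlap. The log2 fold change was -1.41 ± 0.16 (SE; adjusted p = 0.00013 in edgeR).

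*Cp* (ENSMUSG00000003617, chr3:19957054-20009145), the ferroxidase ceruloplasmin, which oxidizes iron as it leaves the cell, had the largest change of the 10. It was at 186, 171 and 165 CPM in control and 954, 918 and 1140.2 CPM in senescent replicates 1 to 3. Every senescent library was several times above every control, with replicate 3 the highest, and the mean was 5.78-fold higher. The log2 fold change was 2.53 ± 0.10 (SE; adjusted p = 2.9e-07 in edgeR), and 7.21% of all tested genes rose further. Per kilobase *Cp* moved from rank 3297 of the tested genes in control MAFs to rank 416 in senescent MAFs. The gene *Hps3* overlaps it on the other strand and held 2.68% to 15.2% as many counts, and was not called. The tested genes whose centred log2 CPM lay closest to that of *Cp* over the 6 libraries were *Cd28*, *Cd80* and *Prrg4*, at root mean square differences of 0.0377, 0.0429 and 0.0516.

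*Gpx4* was lower and *Acsl4*, which activates polyunsaturated fatty acids for membrane phospholipids, was higher in senescent MAFs. *Gpx4* (ENSMUSG00000075706, chr10:80047166-80056439) was at 157, 182 and 182 CPM in control and 128, 138 and 97.5 CPM in senescent replicates 1 to 3. The groups did not overlap, and senescent replicate 3 was the lowest. Its log2 fold change was -0.52 ± 0.13 (SE; adjusted p = 0.0075 in edgeR), and -0.37 without senescent replicate 3. *Acsl4* (ENSMUSG00000031278, chrX:142317993-142390535) was at 67.3, 61.2 and 60.8 CPM in control and 91.1, 94.7 and 119.7 CPM in senescent replicates 1 to 3. All senescent libraries lay above the controls, replicate 3 farthest, at a log2 fold change of 0.69 ± 0.11 (SE; adjusted p = 0.00067 in edgeR), or 0.57 without it.

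**Figure D3:**
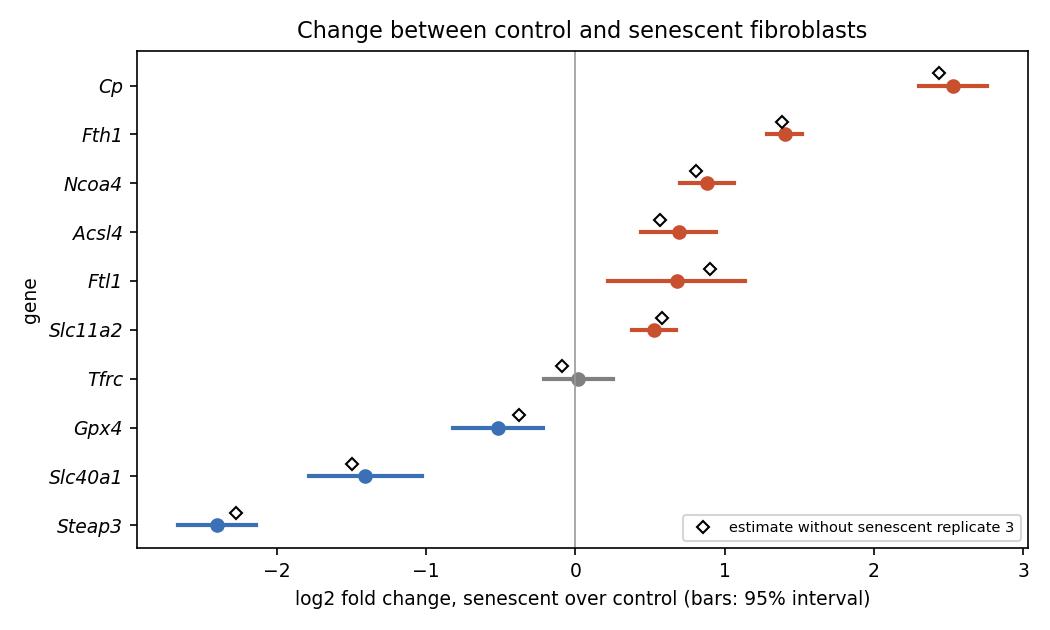
Log2 fold change of each member, senescent over control, from edgeR's quasi-likelihood fit; points are estimates, bars 95% intervals, red higher, blue lower and grey not called, and open diamonds the estimate without senescent replicate 3. The interval of *Tfrc* (-0.21 to 0.25) spans 0, and that of *Ftl1* (0.22 to 1.14) is the widest.

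The order of the levels per kilobase also changed. In control MAFs it ran from *Fth1* (2191 CPM per kilobase) through *Ftl1* (674), *Gpx4* (101), *Steap3* (45.8), *Tfrc* (24.0), *Cp* (18.2), *Acsl4* (11.7), *Ncoa4* (8.45) and *Slc11a2* (6.74) to *Slc40a1* (0.683), with no overlap between the libraries of neighbours in this order. In senescent MAFs *Cp* (105) came just after *Fth1* (5789) and *Ftl1* (1078) and above *Gpx4* (70.3). *Steap3* (8.69) came last but for *Slc40a1* (0.256), and the range of its libraries overlapped that of *Slc11a2* (9.71), as the range of *Acsl4* (18.8) overlapped that of *Ncoa4* (15.6). Within each library the order of these 2 pairs was still that of their means.

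Other genes of iron handling were followed in a list of 64, of which 58 were tested. Of these 21 were called higher, 20 lower and 17 not, with a median log2 fold change of 0.09, against 36.2% and 34.1% of all tested genes called. Both shares were near those of all genes. Without senescent replicate 3 the list had 25 higher and 23 lower. For this list and the ferroptosis list that follows, every log2 fold change of a single gene, other than those stated as levels or counts, passed the test.

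Among genes of uptake and transport 6 of 11 were higher and 2 lower, where 36.2% and 34.1% of all tested genes were. *Trf*, the secreted iron carrier transferrin, rose from 213 to 797 CPM (log2 fold change 1.90 ± 0.06, SE), and *Lcn2*, which binds bacterial iron carriers, by 1.49 on that scale. The reductase gene *Steap2* rose by 0.52, while *Hfe*, a partner of the transferrin receptor (-0.87), and the reductase gene *Steap4* (-0.39) fell. Both tested iron chaperones, which hand iron to ferritin, fell: *Pcbp2* by 0.47 and *Pcbp1* by 0.46. The mitochondrial ferritin gene *Ftmt* held 0 counts in all libraries.

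All 3 genes of export and its hormonal control that were tested, of 6 listed, were higher, where 36.2% of all tested genes were. *Bmp6*, an inducer of hepcidin, rose from 0.435 to 4.32 CPM (log2 fold change 3.30) and *Heph*, a ferroxidase related to *Cp*, from 0.341 to 1.72 CPM (2.33). *Hephl1*, another ferroxidase gene, had 0, 1 and 1 counts in control and 16, 19 and 23 counts in senescent replicates 1 to 3, which is too few for a fold. It passed the filter on low counts only through its senescent libraries, so the filter fixed its direction. Of 5 genes of iron sensing, *Epas1*, a hypoxia-inducible factor, rose (1.41), and 2 fell, among them *Aco1*, which encodes IRP1, one of the hairpin-binding proteins (-0.71). *Ireb2*, which encodes the other hairpin-binding protein, was not called. Of 6 genes of ferritin turnover by autophagy 3 rose, *Atg7* (0.75), *Atg5* (0.44) and *Tax1bp1* (0.48), and *Atg9a* fell (-0.76). The counts for sensing and ferritin turnover stand beside 36.2% of all tested genes called higher and 34.1% called lower.

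Heme genes divided, with 4 of 15 higher and 7 lower. *Hmox1*, the heme oxygenase that frees iron from heme, rose from 142 ± 7.19 to 721 ± 95.9 CPM (SD, n = 3 each; log2 fold change 2.34 ± 0.10, SE). The heme exporter genes *Abcg2* (0.84) and *Flvcr1* (0.53, listed as *Mfsd7b*) rose too. *Blvra*, the biliverdin reductase that acts after heme oxygenase (-1.32), and the heme synthesis gene *Ppox* (-0.64) fell. Of 16 genes of mitochondrial iron and iron-sulfur clusters 4 were higher and 6 lower. *Slc25a37*, the mitochondrial iron importer mitoferrin, rose from 48.5 to 148 CPM (1.61), and *Cisd1* (0.43) and *Lyrm4* (0.64) rose less. *Fdxr* (-1.06) and *Abcb10* (-0.34) were among those that fell.

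**Figure D4:**
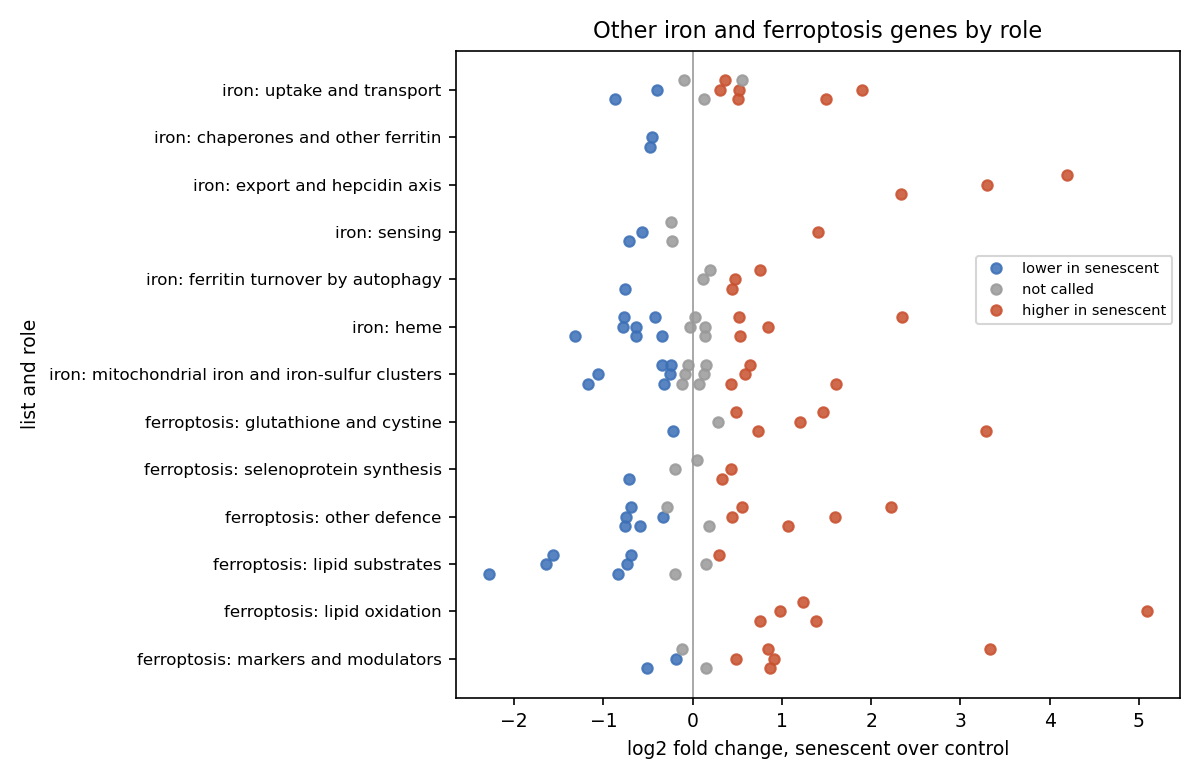
Log2 fold change, senescent over control, of the tested genes of the iron and ferroptosis lists other than the 10 members, by role; each point is a gene, red called higher, blue called lower and grey not called. All 5 tested genes of lipid oxidation lie above 0, but *Alox5* among them passed the filter on low counts only through its senescent libraries. Of 9 genes of lipid substrates 6 were called lower, where 34.1% of all tested genes were.

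In the ferroptosis list 47 of 50 genes were tested, of which 23 were higher, 15 lower and 9 not called, with a median log2 fold change of 0.29, beside the same 36.2% and 34.1% of all tested genes. Without senescent replicate 3 these were 25 higher and 17 lower. Cystine uptake and the making and recycling of glutathione supply GPX4 with its reductant. In the list of these genes 5 of 7 were higher. The list also holds *Chac1*, whose product breaks glutathione down and which was not called. *Slc7a11*, the cystine importer, rose from 4.65 ± 0.31 to 45.2 ± 5.79 CPM (SD, n = 3 each; log2 fold change 3.28 ± 0.12, SE). The subunits of the rate-limiting enzyme of glutathione synthesis, *Gclc* (1.46) and *Gclm* (1.20), rose, and glutathione reductase, *Gsr*, fell (-0.22). Of 5 genes that serve the making of selenoproteins such as GPX4, *Trit1* (0.43) and *Secisbp2* (0.33) were higher and *Eefsec* (-0.71) lower.

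Of 12 other genes of defence or its control 5 were higher and 5 lower, where 36.2% and 34.1% of all tested genes were. Among the lower was *Keap1* (-0.33), which encodes an inhibitor of the antioxidant regulator NRF2. The thioredoxin reductase gene *Txnrd1* rose from 146 to 441 CPM (1.59), *Gch1*, the entry to tetrahydrobiopterin synthesis, from 2.66 to 12.5 CPM (2.23), and *Nfe2l2*, the antioxidant regulator NRF2, by 0.55. *Scd1* (-0.75), *Mboat2* (-0.69) and *Acsl3* (-0.76), whose products favour monounsaturated fatty acids in lipids, fell.

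Genes of lipid substrates, which serve polyunsaturated lipids, ether lipids or fatty acid synthesis at large, were lower in 6 of 9 cases. Of all tested genes 34.1% were called lower. The median of these 9 was -0.74, which is the opposite direction to *Acsl4*. The desaturases *Fads1* and *Fads2* fell from 232 to 78.5 CPM (-1.57) and from 114 to 23.5 CPM (-2.28). *Lpcat3*, which places polyunsaturated fatty acids in phospholipids after ACSL4 has activated them, fell from 102 to 32.5 CPM (-1.65), and *Agps*, of ether lipid synthesis, rose (0.29). All 5 genes of lipid oxidation tested, of 8 listed, were higher, where 36.2% of all tested genes were. Their median was 1.24, and *Cyb5r1* (0.98) and *Nox4* (1.24) were among them. The lipoxygenase gene *Alox5* went from 0, 6 and 1 counts in control to 73, 137 and 136 counts in senescent replicates 1 to 3. It passed the filter on low counts only through its senescent libraries, so the filter fixed its direction. Of 9 markers and modulators 5 were higher and 2 lower, where 36.2% and 34.1% of all tested genes were. *Ptgs2*, the cyclooxygenase gene often read as a marker of ferroptosis, rose from 107 to 1078 CPM (3.33), *Zeb1* by 0.87 and *Sat1* by 0.91, while *Bap1* (-0.51) and *Cars* (-0.19) fell.

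Markers of other cell types that handle iron or make ceruloplasmin were read beside these results. The counts of called markers stand beside 36.2% of all tested genes called higher and 34.1% called lower. Tallies near those shares, such as 3 of 10 fibroblast markers higher, are not read as a result. Summed over 7 erythroid markers, the level was 0.120 to 0.143 CPM in control and 0.114 to 0.213 CPM in senescent libraries, with 2 markers at 0 in all. Macrophage markers summed to 5.72 to 6.31 CPM in control and 10.1 to 11.9 CPM in senescent libraries, with 4 of 5 tested markers higher. Of the macrophage genes, *Itgam* had 0, 0 and 1 counts in control and 38, 29 and 39 in senescent replicates 1 to 3, *Ptprc* had 12, 7 and 9 and then 80, 95 and 128, and *Csf1r* (log2 fold change 0.97) and *Cd68* (0.38) were also higher. *Fcer1g* was not called, and *Spi1*, *Tyrobp* and *Adgre1*, with at most 10 counts in any library, were not tested. Endothelial markers (2.43 to 2.83 and 7.52 to 8.34 CPM, 4 of 4 tested higher) and hepatocyte markers (at most 0.0409, and 0.325 to 0.454 CPM, 1 of 1 tested higher) were also higher in senescent libraries. Markers with few or no control counts, such as *Itgam*, *Cdh5* and *Alb*, passed the filter on low counts only through senescent libraries. The filter thus fixed their direction. *Ptprc* and *Kdr* also needed senescent libraries to pass, since not every control library reached the filter's level. The hepatocyte tally, with *Alb* as its only tested marker, rests wholly on the filter. The macrophage and endothelial tallies rest in part on it. Chondrocyte markers summed to 4618 to 5139 CPM in control and 332 to 415 CPM in senescent libraries, with 5 of 5 lower. Fibroblast markers (63764 to 65730 and 47958 to 53450 CPM) had 3 of 10 higher and 5 lower. Keratinocyte markers (15.8 to 16.5 and 7.69 to 7.81 CPM, 1 of 3 tested lower) and Schwann cell and melanocyte markers (4.10 to 4.45 and 3.29 to 3.75 CPM, 2 of 3 tested lower) had none of their tested genes higher. In the latter list 2 untested genes did not overlap between groups and were higher in senescent libraries: *Sox10*, with 0 counts in all controls and 20, 34 and 8 in senescent replicates 1 to 3, and *Mlana*, with 1, 0 and 0 and then 2, 2 and 15. The same held for the untested *Spi1*, *Adgre1*, *Emcn* and *Apoa1* of the other lists, and the groups did not overlap for 75.3% of all tested genes. The part of other cell types in the changes of the iron genes was not tested.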

How the data were processed

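Stranded mRNA libraries were made from 200 ng of RNA of 3 control and 3 senescent MAF samples and read as pairs of 100 bases. The authors ran the MAPRSeq pipeline, in which STAR aligned reads to mm10 and Subread counted them on genes, and they deposited raw counts per gene, without normalization. The annotation release, strand setting and handling of multi-mapped reads are not given in the sources used here.

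From these counts, edgeR 4.0.16 (R 4.3.3) kept 17589 of 43346 genes by filterByExpr, scaled libraries by TMM and compared groups with its two-sided, robust quasi-likelihood test, with Benjamini-Hochberg adjustment over all tested genes and group as the only term. SE is the log2 fold change over the root of F. Other scalings, filters, the edgeR exact test, DESeq2 1.42.0, a replicate block and each library left out were tried. Adding the overlapping miRNA row, or pseudogene rows (at least 80% identity over 50% of the copy), was chosen after seeing the data.

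The 10 members and all gene lists were chosen with earlier results of these data known. Named genes are the members, up to 3 genes with the smallest p in each direction and role of each list, 3 genes most like the member with the largest change, copies of members, and 4 senescence marks; some genes this rule takes are not reported here. *Ireb2*, *Ftmt*, *Keap1*, *Chac1*, *Gm22133*, *Gm6768*, *Hps3* and the single macrophage, endothelial, hepatocyte, Schwann cell and melanocyte markers are named beyond these, picked with their values in view. For 3 genes an older symbol was matched by Ensembl identifier.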

Additional observations from a re-analysis of the deposited data

How the results depend on the processing

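Over all alternatives, 153 of 158 values of single members and the ferritin ratio kept their direction and call. *Ftl1* was no longer called with no filter on low counts (log2 fold change 0.67, adjusted p = 0.0967 in edgeR) or without control replicate 1, and ranged from 0.52 to 0.90. *Tfrc*, which was not called under any, ranged from -0.0894 to 0.0822 over the fits that left out 1 library, and was below 0 without control replicate 2, control replicate 3 or senescent replicate 3. At the limit in the study's methods the counts fell to 2 members higher and, of 58 genes tested in the iron list, 8 higher and 3 lower. Of 47 tested in the ferroptosis list 10 were higher and 3 lower, where 17.8% and 12.3% of all tested genes were. Scaling by library size alone moved the median of all genes from 0.01 to 0.09 and the calls from 6360 higher and 6005 lower to 6929 and 5370. With the replicate block 6 members were higher and 3 lower, and the lists had 20 and 18 (iron) and 23 and 13 (ferroptosis). Over all 17589 genes that fit called 5964 higher and 5660 lower. The deviations of samples with the same number correlated at -0.466, 0.364 and -0.325, and the largest correlation was 0.584, between control replicate 1 and senescent replicate 3. Such values cannot say whether samples with the same number came from the same culture or mouse. Depth limits genes of few counts such as *Hephl1*, for which no fold is given.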

Other observations

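Promoters of the members were searched for 3 motifs on both strands, in RefSeq windows (GRCm38.p6) from 250 bases before to 50 bases after each start, of which 8 of the 10 members had 19. The antioxidant response core TGACNNNGC was found in 1 of them, at *Ncoa4* (chr14:32165539-32165838, plus strand), and in 12.4% of all 32851 windows. The E-box CACGTG (7.15% of all windows) and the AP-1 motifs TGACTCA or TGAGTCA (5.2%) were found in none of the 19. A missing match says only that these letters are not in these windows.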
